A study of Mus musculus with 18 samples.

Results

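The m6A-tagged RNA of Mettl3-deficient haematopoietic stem cells (HSCs) was compared, gene by gene, with that of wild-type HSCs. For each gene the value was log2((Mettl3-deficient + 1)/(wild-type + 1)), taken on the 2 m6A-tagged columns in RPKM (reads scaled to gene length and library depth). Of 23038 genes in both tables, 6295 had a mean of at least 10 RPKM over all 6 columns and were compared, and the same ratio was taken on the input columns as a yardstick. The series holds 18 libraries, 3 for each of 3 RNA fractions (input, antibody-unbound and m6A-tagged) in each genotype, and 6 of them are m6A-tagged. All mice were C57BL/6. One group was wild-type and the other carried Mx1-cre with a homozygous floxed Mettl3 allele (Mettl3fl/fl). Both genotypes were given 5 doses of 10 µg pIpC, one every other day, and were killed 10 days after the last dose. Cells that were Lineage-, Sca1+, cKit+, CD150+ and CD48- were sorted from bone marrow, and polyadenylated RNA of 3000 cells went into each sample. Mx1-cre is switched on through interferon signalling, which pIpC induces, in many cell types of the mouse and not in HSCs alone, so cells around the HSCs can also have lost Mettl3.

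Mettl3 is the catalytic subunit of the nuclear complex that places N6-methyladenosine (m6A) on messenger RNA, and Mettl14 is the partner that helps it bind RNA. The mark is read by YTH-domain proteins, among them Ythdf2, which speeds the decay of methylated transcripts. An antibody against m6A pulls down transcripts that carry the mark, together with RNA held non-specifically, and a pulled-down level follows the abundance of a transcript as well as its methylation. Here 1.25 µg of antibody was used, the washes, pooled, made up the unbound fraction, and free m6A nucleotide served to elute what the antibody held. All fractions were amplified by Smart-seq2. No fragmentation of the RNA is described in the labels, so each value belongs to a whole gene and gives no position of a methylated base.

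Each deposited column is a mean over 3 libraries, so most differences below have no replicate check and carry no p-value. A gene is called higher or lower at a 2-fold difference, a size and not a test. Library depth, worked out from the values, in units of 1000000 reads, was 30.32 to 34.99 in wild-type and 25.89 to 33.59 in Mettl3-deficient m6A-tagged RNA. In input it was 28.33 to 37.22 and 9.42 to 30.06 in the same order. Mettl3 itself was measured at 36.1 and 17.4 RPKM in the wild-type and Mettl3-deficient m6A-tagged columns, a log2 ratio of -1.02. In input the values were 36.4 and 19.6 RPKM and in unbound RNA 33.2 and 11.2 RPKM. Mettl3 was thus lower in all 3 Mettl3-deficient columns and was still detected in each. Reads outside the floxed part of the gene still count towards it, so this checks the labels only in part. Mettl14 was at 15.2 and 6.51 RPKM in the m6A-tagged columns, but its mean of 8.2 RPKM over the 6 columns lay under the minimum. Of the markers of the sort, Slamf1, which encodes CD150, stood at 42.9 and 33.7 RPKM, Kit at 122 and 73.9 RPKM, and Ly6a, the gene of Sca1, at 124 and 222 RPKM in wild-type and Mettl3-deficient m6A-tagged RNA.

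In m6A-tagged RNA 379 genes (6.02%) were higher by 2-fold or more in Mettl3-deficient cells and 450 (7.15%) were lower by as much. In input 150 genes (2.38%) were higher and 420 (6.67%) lower. In unbound RNA, the most variable fraction, 1237 (19.7%) were higher and 1427 (22.7%) lower. The median log2 ratio was near 0 in each, at -0.01 in m6A-tagged RNA, -0.05 in input and 0.02 in unbound RNA, and the standard deviation across genes was 0.76, 0.70 and 1.38. Large differences were mostly downward. In m6A-tagged RNA 42 genes were at least 8-fold lower and 3 at least 8-fold higher, against 51 and 7 in input. The balance of calls depends on level. With a minimum of 50 RPKM, 152 genes were higher and 116 lower in m6A-tagged RNA (56.7% of calls higher, against 45.7% here), and the median was 0.12.

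The calls in m6A-tagged RNA were set against those in input. Of the 450 genes lower in m6A-tagged RNA, 236 (52.4%) were also 2-fold lower in input, and these made up 56.2% of the genes lower in input. Of the 379 genes higher in m6A-tagged RNA, 57 (15%) were also 2-fold higher in input, or 38.0% of the 150 genes higher there. The direction was shared by more, since 272 of the 379 (71.8%) lay above 0 in input, beside 45.8% of all genes, and 426 of the 450 (94.7%) lay below 0, beside 54.2%. A further 164 of the 379 and 61 of the 450 had input columns within 1.25-fold of each other. Both fractions of a genotype come from the same RNA, so their ratios are not independent. Across the 6295 genes, which are not replicates, Pearson's r between the ratios was 0.64 and Spearman's rho 0.47. With unbound RNA these correlations were 0.24 and 0.12. In all 3 fractions 44 genes were 2-fold higher and 158 were 2-fold lower.

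**Figure D1:**
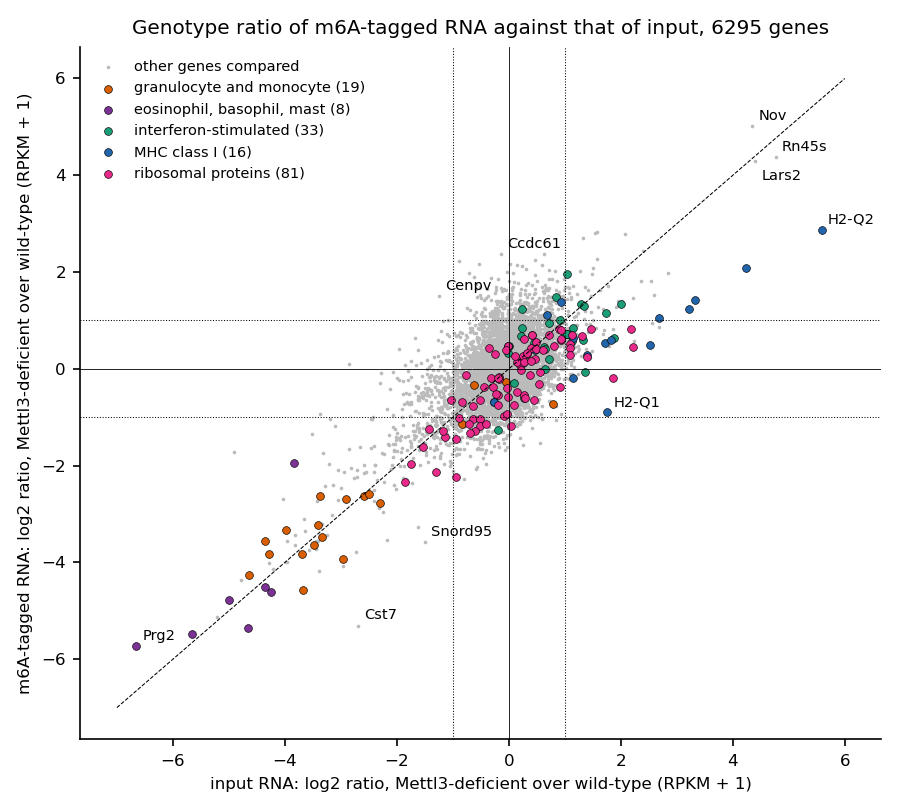
Genotype log2 ratio (RPKM + 1) of each of 6295 genes in input RNA (horizontal) and m6A-tagged RNA (vertical), with members of 5 gene lists coloured and their numbers in brackets. Dotted lines mark 2-fold and the dashed line equal ratios. Granulocyte and eosinophil genes lie along the dashed line at the lower left, and MHC class I genes lie under it at the right.

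Among the genes furthest down were several products of eosinophils and neutrophils. Prg2 (chromosome 2, 84980461 to 84983632, RefSeq GRCm38.p6), the major basic protein of eosinophil granules, stood at 655, 1067 and 664 RPKM in wild-type input, unbound and m6A-tagged RNA and at 5.52, 24.3 and 11.5 RPKM in the Mettl3-deficient columns. Its log2 ratio was -5.73 in m6A-tagged RNA and -6.65 in input. Epx (chromosome 11, 87863997 to 87875536), eosinophil peroxidase, was at 63.0, 51.8 and 45.6 RPKM against 0.273, 0.0843 and 0.0494 RPKM. All 3 wild-type columns of both genes lay above all 3 Mettl3-deficient columns. Ear2, Ear1 and Ear6, eosinophil-associated ribonucleases, had m6A-tagged log2 ratios of -5.35, -4.62 and -4.51, and Prg3, a paralog of Prg2, one of -4.77. The Ear genes are close copies of each other, so how reads were split between them is uncertain.

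How alike the Ear genes are shows in their promoters. The 250 bases before the start of Ear1 (chr14:43819640-43819889, minus strand) and Ear2 (chr14:44102404-44102653, plus strand), taken from RefSeq GRCm38.p6, were identical at 246 of 248 positions (99.2%) once shifted by 2 bases. They are printed 5′ to 3′ on the gene's strand, with capitals for the motif TTGCNNAA, a form of the C/EBP site, searched on both strands.
Ear1: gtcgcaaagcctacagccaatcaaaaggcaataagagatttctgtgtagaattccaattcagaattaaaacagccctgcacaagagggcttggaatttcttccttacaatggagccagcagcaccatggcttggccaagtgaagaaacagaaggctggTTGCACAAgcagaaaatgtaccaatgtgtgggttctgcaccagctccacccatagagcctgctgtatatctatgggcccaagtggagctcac
Ear2: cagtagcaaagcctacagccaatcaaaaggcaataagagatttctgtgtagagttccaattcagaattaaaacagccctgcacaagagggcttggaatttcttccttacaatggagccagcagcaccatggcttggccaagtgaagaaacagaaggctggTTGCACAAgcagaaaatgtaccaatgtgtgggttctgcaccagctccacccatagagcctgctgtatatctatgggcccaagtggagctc
Of 27025 RefSeq promoter windows of this length 2582 (9.55%) held the motif, as did 399 of the 5100 genes compared that have a window (7.82%). Among granulocyte and monocyte genes 6 of 18 windows held it (33.3%), and among eosinophil, basophil and mast cell genes 2 of 7 (28.6%), which are the near-identical windows of Ear1 and Ear2. These are matches of letters and show no binding.

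Neutrophil and monocyte genes were also low. Retnlg (chromosome 16, 48872608 to 48874498), a resistin-like protein of neutrophils, stood at 176, 235 and 238 RPKM in wild-type input, unbound and m6A-tagged RNA against 3.80, 2.91 and 5.86 RPKM. Ly6c2 (chromosome 15, 75108161 to 75112066), a monocyte surface protein, was at 120 and 4.07 RPKM in the wild-type and Mettl3-deficient m6A-tagged columns, a log2 ratio of -4.57. Mmp8, the neutrophil collagenase, and Cybb, a subunit of the phagocyte oxidase, had ratios of -4.26 and -4.17, and 1100001G20Rik (named Wfdc21 in RefSeq) one of -4.36. Each of these 5 genes had an input ratio between -5.20 and -3.39. Their level was low in input as it was in m6A-tagged RNA.

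The lists of such genes lay low in all 3 fractions. Of 8 eosinophil, basophil and mast cell genes, 7 were 2-fold lower in m6A-tagged RNA (all genes compared, 7.15%) and the same 7 in input (6.67%), with medians of -4.69 and -4.51. Mcpt8, a basophil protease, was the exception at 13.0 and 7.73 RPKM. Of 19 granulocyte and monocyte genes, 16 were 2-fold lower in m6A-tagged RNA and 15 of these in input too, with medians of -3.23 and -3.34 beside -0.01 and -0.05 for all genes compared. Elane, neutrophil elastase, stood at 421 and 41.2 RPKM, Mpo, myeloperoxidase, at 471 and 76.0 RPKM, and Lcn2, lipocalin 2, at 1007 and 90.3 RPKM in wild-type and Mettl3-deficient m6A-tagged RNA. Prtn3, proteinase 3, was at 508 and 404 RPKM and Csf3r, the G-CSF receptor, at 42.9 and 35.6 RPKM, both under 2-fold. Lists of 12 erythroid and 11 megakaryocyte genes held 4 and 5 genes that were 2-fold lower in both fractions, beside 236 of all 6295 genes. Among them were Car1, a carbonic anhydrase of red cell precursors, at 121 and 17.6 RPKM and Pf4, platelet factor 4, at 310 and 70.0 RPKM. These 2 lists were divided, since 3 of the 12 and 5 of the 11 lay above 0 in m6A-tagged RNA. Selp, of the megakaryocyte list, was 2-fold higher there, at 42.9 and 92.0 RPKM. In bulk RNA fewer cells of a type and less RNA per cell cannot be told apart.

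Marker genes of each cell type, summed over the markers, give the same picture. The 8 granulocyte and monocyte markers came to 4757, 6833 and 5519 RPKM in wild-type input, unbound and m6A-tagged RNA and to 1206, 2407 and 1368 RPKM in the Mettl3-deficient columns. The 5 eosinophil, basophil and mast cell markers came to 746, 1144 and 744 RPKM against 19.3, 47.7 and 24.2 RPKM. Here 1 of the 5 was under 1 RPKM in each wild-type column and 2 in each Mettl3-deficient column. The 8 HSC markers came to 870, 1026 and 758 RPKM against 956, 1161 and 830 RPKM. Sums for 5 erythroid markers were 119, 142 and 150 RPKM against 21.2, 33.9 and 28.4 RPKM, and for 5 megakaryocyte markers 668, 992 and 600 RPKM against 261, 444 and 319 RPKM. Lymphoid markers came to 198, 363 and 145 RPKM against 47.2, 225 and 54.7 RPKM, nearly all from Nkg7, and the defining markers Cd3e, Ms4a1 and Il7r were under 1 RPKM in every column. All 5 endothelial and stromal markers were under 1 RPKM in all 6 columns. The higher HSC sum rested on Ly6a, and without it the other 7 markers came to 752, 831 and 634 RPKM against 608, 410 and 608 RPKM, lower in all 3 fractions. Kit, at 165, 138 and 122 RPKM against 92.4, 9.52 and 73.9 RPKM, and Hlf were lower in each. The marker sums for the other blood lineages were lower with all of their markers counted. The longer list of 12 erythroid genes was not lower, at 2091, 2859 and 1921 RPKM against 2241, 3005 and 1922 RPKM. Its largest member was Car2. The list of 11 megakaryocyte genes was lower, at 1233, 1693 and 1109 RPKM against 773, 1250 and 873 RPKM. Pf4 was the largest megakaryocyte marker, and Itga2b was lower in input and unbound RNA but higher in m6A-tagged RNA, at 89.7 and 109 RPKM. The part these lineages have in the 2-fold lower genes was not tested.

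**Figure D2:**
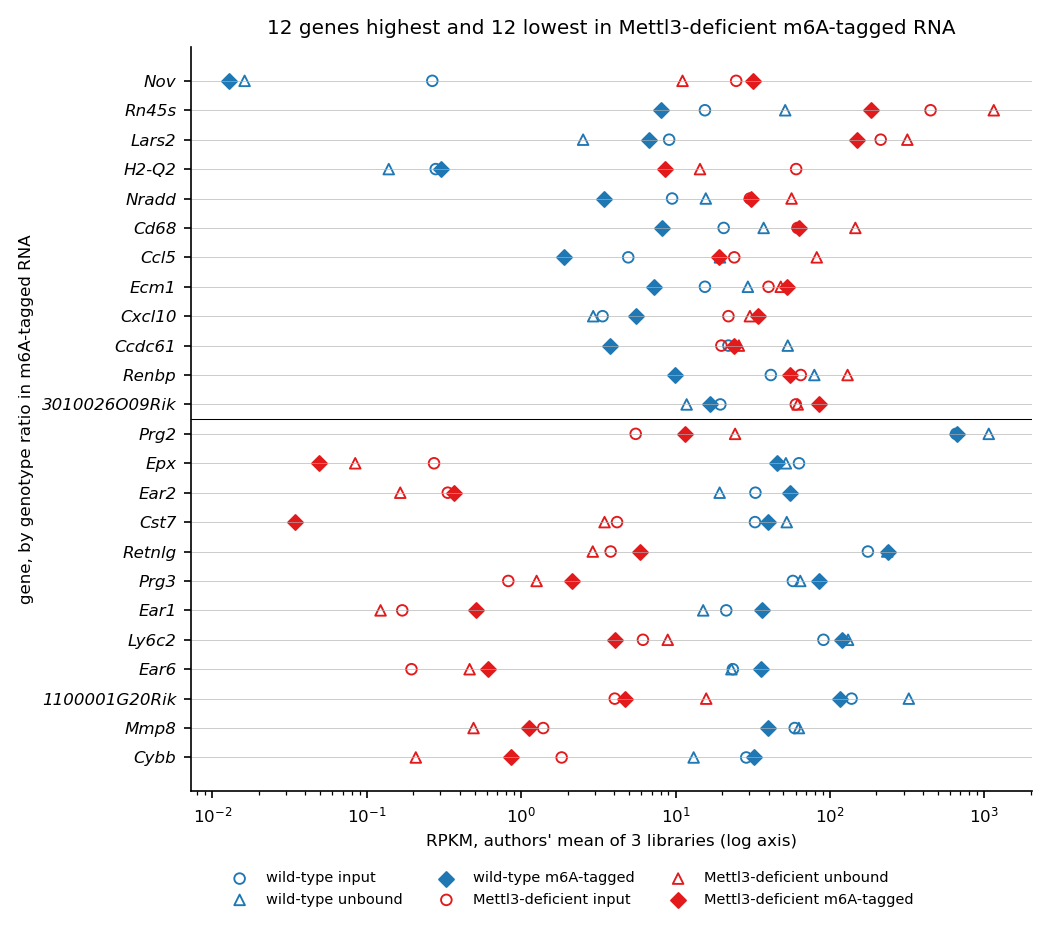
RPKM (log axis) in the 6 deposited columns for the 12 genes highest (top) and 12 lowest (bottom) by genotype ratio in m6A-tagged RNA. Blue marks wild-type and red Mettl3-deficient, with filled diamonds for m6A-tagged, circles for input and triangles for unbound RNA. For the lower 12 genes all red marks lie to the left of all blue marks.

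Cst7 (chromosome 2, 150570415 to 150578944), which encodes cystatin F, an inhibitor of lysosomal proteases in immune cells, was lower in m6A-tagged RNA by more than in input. It stood at 32.7, 52.5 and 39.9 RPKM in wild-type input, unbound and m6A-tagged RNA and at 4.18, 3.47 and 0.0342 RPKM in the Mettl3-deficient columns. Its reads per Mettl3-deficient library could be worked out from the columns. They were 0, 0 and 0 in m6A-tagged RNA, 12, 183 and 79 in input, and 0, 34 and 208 in unbound RNA, each listed by rising depth of the library. With 3 reads over the group taken as the floor, the m6A-tagged level was at least 1182-fold lower than the wild-type 39.9 RPKM. Its log2 ratio of -5.31 depends on the added 1 RPKM and is no bound.

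The highest genes came from several groups. Nov (chromosome 15, 54745910 to 54753762, named Ccn3 in RefSeq), a secreted matrix protein known to act on HSC self-renewal, stood at 0.266, 0.0162 and 0.0129 RPKM in wild-type input, unbound and m6A-tagged RNA and at 24.7, 11.1 and 31.9 RPKM in the Mettl3-deficient columns. No wild-type m6A-tagged library had a read of Nov, so the Mettl3-deficient level was at least 2488-fold higher than the floor of 3 reads summed over the 3 libraries. In wild-type input it had 50, 1 and 0 reads. Rn45s, the ribosomal RNA precursor, was at 8.0 and 185 RPKM in m6A-tagged RNA and at 15.5 and 448 RPKM in input. Lars2 (chromosome 9, 123366927 to 123462675), the mitochondrial leucyl-tRNA synthetase, was at 6.70 and 150 RPKM and at 9.09 and 213 RPKM. These 3 genes were the ones at least 8-fold higher in m6A-tagged RNA, and all were at least 8-fold higher in input and unbound RNA as well. Whether Lars2 shares reads with ribosomal RNA was not tested.

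H2-Q2, described with the MHC genes, came next, followed by genes of mixed function. Cd68 (chromosome 11, 69664213 to 69666170), a lysosomal protein of macrophages, stood at 20.5, 37.2 and 8.16 RPKM in wild-type input, unbound and m6A-tagged RNA and at 61.7, 146 and 63.4 RPKM in the Mettl3-deficient columns. Its log2 ratio was 2.81 in m6A-tagged RNA and 1.54 in input. Ccl5, a chemokine of T cells and other leukocytes, was at 1.90 and 19 RPKM in m6A-tagged RNA and Cxcl10, an interferon-induced chemokine, at 5.54 and 34.4 RPKM. Ecm1, an extracellular matrix protein, Nradd, a relative of the neurotrophin receptor, and Renbp, a sugar epimerase, had m6A-tagged ratios of 2.71, 2.83 and 2.36 and input ratios of 1.32, 1.58 and 0.63. The remaining gene of the 12 highest with a raised input, 3010026O09Rik (Mrnip in RefSeq), which acts in DNA repair, had ratios of 2.28 and 1.58. For Cd68, Ecm1, Nradd and Renbp the wild-type m6A-tagged column was the lowest of the 6.

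Interferon-stimulated genes were higher in both fractions by similar amounts. Of 33 compared, 28 lay above 0 and 8 were 2-fold higher in m6A-tagged RNA, and 30 lay above 0 and 13 were 2-fold higher in input. That is 24.2% and 39.4% of the list called higher, beside 6.02% and 2.38% of all genes compared, of which 3111 and 2882 of 6295 lay above 0. The medians were 0.64 and 0.72. Zbp1, a sensor of Z-form nucleic acids, stood at 7.81 and 33.2 RPKM in m6A-tagged RNA, Irf1, a transcription factor, at 60.9 and 155 RPKM, Irf7, its relative, at 26.9 and 67.1 RPKM, and Oasl1, an antiviral protein, at 8.88 and 24 RPKM. Cmpk2, a mitochondrial nucleotide kinase, was the only member 2-fold lower, at 35.7 and 14.2 RPKM with input of 13.0 and 11.2 RPKM. Mice of both genotypes received pIpC, an inducer of interferon.

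Promoters with an interferon-type motif are shown for Cxcl10 (chr5:92348890-92349139), a textbook interferon target, and for Socs1 (chr16:10785537-10785786), an inhibitor of cytokine signalling that was 3.16-fold higher in m6A-tagged RNA, at 7.87 and 27.1 RPKM. Both windows are the 250 bases before the start, on the minus strand of RefSeq GRCm38.p6, with capitals for GAAA, any 2 bases and GAAA again, a form of the interferon-stimulated response element, searched on both strands. Socs1 holds 2 overlapping matches.
Cxcl10: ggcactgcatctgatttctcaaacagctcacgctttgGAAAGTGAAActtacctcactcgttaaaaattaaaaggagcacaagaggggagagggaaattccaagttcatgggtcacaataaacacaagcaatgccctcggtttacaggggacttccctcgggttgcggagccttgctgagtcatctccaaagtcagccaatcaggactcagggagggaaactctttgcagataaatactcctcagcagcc
Socs1: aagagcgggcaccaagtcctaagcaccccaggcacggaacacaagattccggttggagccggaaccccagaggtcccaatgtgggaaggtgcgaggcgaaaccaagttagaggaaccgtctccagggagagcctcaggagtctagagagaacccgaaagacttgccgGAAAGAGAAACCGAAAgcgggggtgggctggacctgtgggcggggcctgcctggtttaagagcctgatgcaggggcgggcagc
Of all 27025 windows 821 (3.04%) held this motif, and of those of the genes compared 145 of 5100 (2.84%). It was found in 9 of 25 interferon-stimulated genes with a window (36.0%) and in 3 of 12 MHC class I and antigen presentation genes (25.0%).

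MHC class I genes, which present peptides to T cells and natural killer cells, were higher in Mettl3-deficient cells by much more in input than in m6A-tagged RNA. Of 16 genes 12 were 2-fold higher in input (all genes, 2.38%) and 7 in m6A-tagged RNA (6.02%), and the medians were 1.74 and 0.62. For 14 of the 16 the m6A-tagged ratio was under the input ratio. The median of m6A-tagged minus input ratio over the 16 was -1.27 on the log2 scale, and over all genes 0.04. H2-K1, a classical class I gene, stood at 1143, 892 and 1414 RPKM in wild-type input, unbound and m6A-tagged RNA and at 3768, 1848 and 2058 RPKM in the Mettl3-deficient columns. B2m, the shared light chain, was at 1478, 1749 and 1752 RPKM against 3893, 4353 and 2130 RPKM. H2-Q1 went in opposite directions, at 57.8 and 198 RPKM in input and at 83.2 and 44.1 RPKM in m6A-tagged RNA. H2-Q2 (chromosome 17, 35342307 to 35346764) was at 0.280 and 60.4 RPKM in input and at 0.303 and 8.50 RPKM in m6A-tagged RNA. In wild-type m6A-tagged RNA it had 8, 13 and 9 reads. H2-Q genes are near-identical copies and their single values are uncertain. Tapbp and H2-M3 were the 2 genes of the list with a higher ratio in m6A-tagged RNA than in input. Ratios of summed RPKM over the list show the same order, at 4822 and 15904 RPKM in input against 6010 and 8669 RPKM in m6A-tagged RNA.

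**Figure D3:**
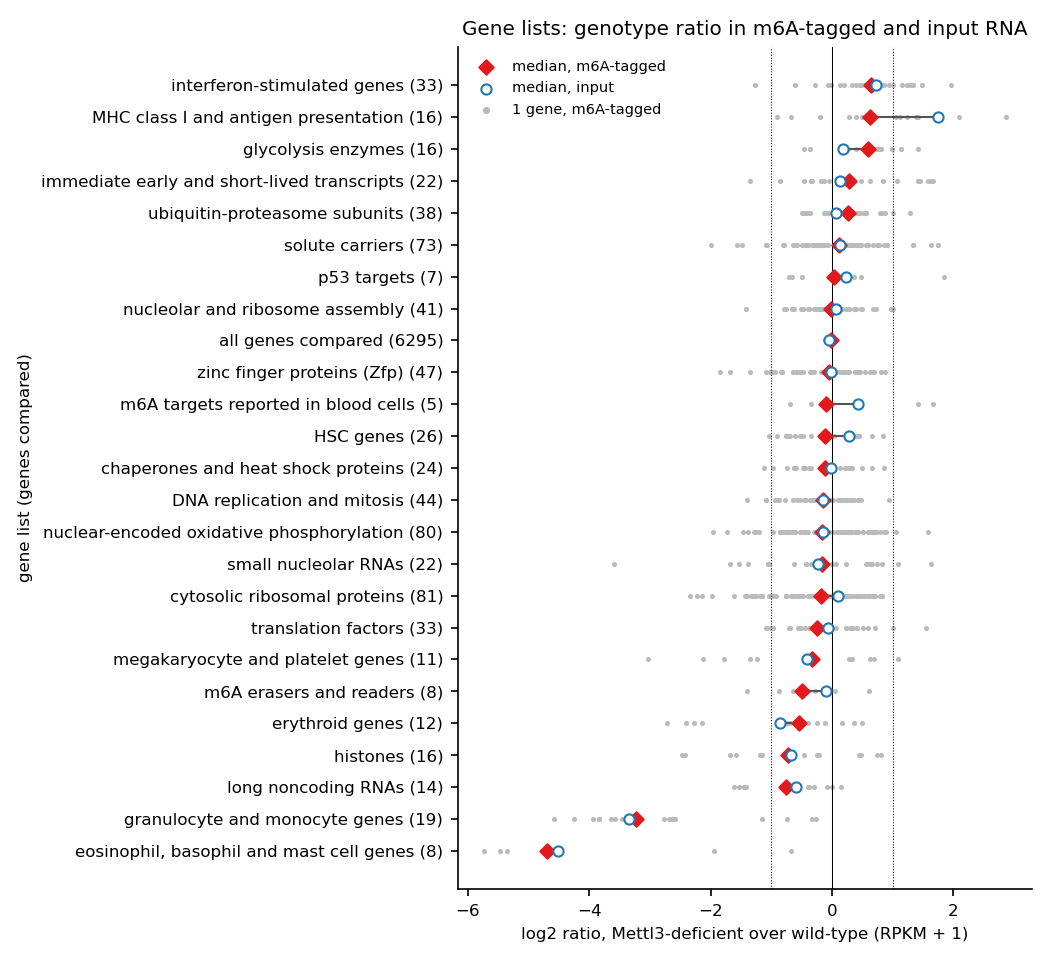
Genotype log2 ratio (RPKM + 1) for gene lists with at least 5 genes compared, numbers in brackets. Red diamonds are medians in m6A-tagged RNA, open circles medians in input and grey points single genes in m6A-tagged RNA. The MHC class I list has the widest gap between its medians, 0.62 and 1.74, and the 2 myeloid lists lie at -3.23 and -4.69.

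Among genes whose input columns differed by less than 1.25-fold, the m6A-tagged columns still differed for some. Ccdc61 (chromosome 7, 18890883 to 18910414), a centrosomal protein, stood at 22 and 19.8 RPKM in input, 53.3 and 25.7 RPKM in unbound and 3.78 and 23.8 RPKM in m6A-tagged RNA of wild-type and Mettl3-deficient cells. Its m6A-tagged ratio was 5.19-fold. Kctd13 (chromosome 7, 126928840 to 126947897), an adaptor of a ubiquitin ligase, was at 22.2 and 22.5 RPKM in input, 39.6 and 40.0 RPKM in unbound and 3.37 and 18.5 RPKM in m6A-tagged RNA. In both, the wild-type m6A-tagged column was the lowest of the 6. It was also the lowest for Ippk, an inositol phosphate kinase (3.10 and 17.1 RPKM, m6A-tagged), the protease Adam15 (10.3 and 46.3 RPKM), 9030624J02Rik (Vps35l in RefSeq), a subunit of an endosomal recycling complex (7.73 and 33.9 RPKM), and 4833439L19Rik (6.01 and 29.7 RPKM). Mad2l2, a DNA repair protein, was at 18.9 and 77.2 RPKM and Chchd6, a protein of mitochondrial cristae, at 16.9 and 64.4 RPKM. In both of these, too, the wild-type m6A-tagged column was the lowest of the 6. For these 8 genes the m6A-tagged ratio was between 3.65-fold and 5.19-fold.

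Genes lower in m6A-tagged RNA with an even input had smaller ratios, from 2.75-fold to 3.19-fold for the 8 lowest. Snord72 (chromosome 15, 5118421 to 5118480), a small nucleolar RNA, stood at 11.6 and 11 RPKM in input and at 20.4 and 5.72 RPKM in m6A-tagged RNA. Snhg3 (chromosome 4, 132351933 to 132353686), a host gene of small nucleolar RNAs, was at 46.0 and 40.6 RPKM in input, 79.6 and 87.8 RPKM in unbound and 52.9 and 16.7 RPKM in m6A-tagged RNA. Here it was the Mettl3-deficient m6A-tagged column that stood apart. Brms1l, part of a histone deacetylase complex, was at 32.5 and 10.3 RPKM in m6A-tagged RNA, the actin-binding Twf1 at 22.6 and 6.75 RPKM, and Gm13157 (Zfp984 in RefSeq), a zinc finger gene, at 29.1 and 8.80 RPKM. Poli, a translesion DNA polymerase, was at 54.5 and 18.1 RPKM, Pard6a, a cell polarity protein, at 37.2 and 12.3 RPKM, and Anapc10, a subunit of the anaphase-promoting complex, at 14.6 and 4.67 RPKM. For Snord72, Gm13157, Brms1l, Twf1, Poli and Pard6a the wild-type m6A-tagged column was the highest of the 6.

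Set out by class, the genes higher in m6A-tagged RNA alone had low wild-type m6A-tagged values. The 164 genes that were 2-fold higher there with input within 1.25-fold had a median log2 m6A-tagged over input of -1.05 for wild-type and 0.26 for Mettl3-deficient cells. Over all 6295 genes these medians were 0.06 and 0.12. In wild-type cells 87 of the 164 were at least 2-fold lower in m6A-tagged RNA than in input, and in Mettl3-deficient cells 2 were 2-fold higher and 1 was 2-fold lower. The 61 genes lower in m6A-tagged RNA alone had medians of 0.82 and -0.33, with 16 at least 2-fold above input in wild-type and 5 at least 2-fold under input in Mettl3-deficient cells. The genotype ratio of a class is built from these same columns, so the medians describe which column stands apart and test nothing. The 57 genes higher in both fractions had medians of 0.03 and 0.04, and the 236 lower in both 0.24 and 0.37. Over all genes the standard deviation of m6A-tagged over input was 0.60 for wild-type and 0.44 for Mettl3-deficient cells.

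**Figure D4:**
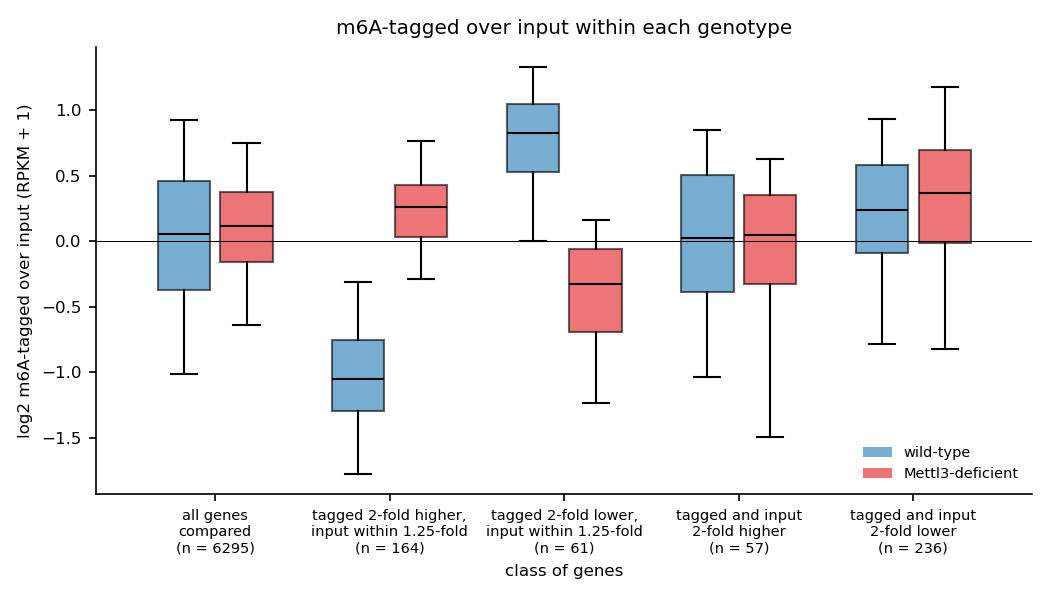
Log2 m6A-tagged over input (RPKM + 1) within wild-type (blue) and Mettl3-deficient (red) cells, for all genes and 4 classes, with the number of genes under each. Boxes span the quartiles with the median as a line, and whiskers run from the 5th to the 95th percentile of genes. In the class 2-fold higher in m6A-tagged RNA with an even input the wild-type median is -1.05 and the Mettl3-deficient one 0.26.

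Only 2 genes were 2-fold in opposite ways. Cenpv (chromosome 11, 62524944 to 62539869), a centromere protein, stood at 38.0, 47.1 and 4.10 RPKM in wild-type input, unbound and m6A-tagged RNA and at 15.4, 48.7 and 13.4 RPKM in the Mettl3-deficient columns. Rras (chromosome 7, 45017942 to 45021646), a GTPase of the Ras family, was at 26.9, 34.5 and 4.93 RPKM against 12.1, 29.1 and 11 RPKM. Both were higher in Mettl3-deficient m6A-tagged RNA and lower in input. Their wild-type m6A-tagged value was the lowest of the 6 columns.

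Among the proteins that handle m6A, the compared members of the list of erasers and readers lay mostly below 0. Of its 15 genes 8 were compared, all of them readers, so no eraser passed the minimum. Of 8 genes 6 were lower in Mettl3-deficient m6A-tagged RNA, 1 of them (12.5%, all genes 7.15%) by 2-fold, and the median was -0.49 against -0.10 in input. With a minimum of 50 RPKM the input median was 0.17. That gene was Prrc2a, a reader outside the YTH family, at 30.6 and 11 RPKM in m6A-tagged RNA and 19.3 and 6.10 RPKM in input. The splicing-linked reader Hnrnpa2b1 stood at 383 and 245 RPKM in m6A-tagged RNA and at 316 and 413 RPKM in input. Ythdf2 was at 49.4 and 76.0 RPKM in m6A-tagged RNA, the largest positive ratio of the list at 0.61, and at 32.4 and 66.7 RPKM in input. Ythdf1 and Ythdf3, its paralogs, had m6A-tagged ratios of -0.58 and -0.40. Mettl16, a methyltransferase that acts apart from Mettl3, was at 30.7 and 30.2 RPKM.

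Transcripts reported elsewhere as m6A targets in blood cells showed no common direction. Myc (chromosome 15, 61985341 to 61990361), a driver of stem cell differentiation and growth, stood at 117 and 98.0 RPKM in input, 5.82 and 48.0 RPKM in unbound and 174 and 137 RPKM in m6A-tagged RNA. Its m6A-tagged ratio of -0.34 was close to its input ratio of -0.26, while in unbound RNA Mettl3-deficient cells were 7.18-fold higher. Gata2, a transcription factor of HSCs, was at 170 and 158 RPKM in m6A-tagged RNA, and Tal1, another, at 29.0 and 17.7 RPKM. Cish, a cytokine signalling inhibitor, was at 55.2 and 148 RPKM in m6A-tagged RNA and 31.8 and 132 RPKM in input. Cish and Socs1 were the 2 of 5 genes that were 2-fold higher in m6A-tagged RNA (all genes, 6.02%). The input median of the list was 0.43, and -0.42 with no minimum on RPKM. All 5 lay above 0 in unbound RNA, where the median ratio was 2.55 beside 0.02 for all genes.

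Immediate early and short-lived transcripts differed among themselves. Of 22 genes 6 were 2-fold higher and 1 was 2-fold lower in m6A-tagged RNA (27.3% and 4.55%, all genes 6.02% and 7.15%), with a median of 0.28. With no minimum on RPKM that median was -0.13, and with the minimum set on the m6A-tagged columns alone -0.17, so the sign of the list's median depends on the minimum. Fos, a subunit of AP-1, stood at 69.4 and 217 RPKM in m6A-tagged RNA and 57.0 and 179 RPKM in input, and Dusp1, a MAP kinase phosphatase, at 32.3 and 89.5 RPKM and 29.7 and 65.1 RPKM. Nfkbia, the inhibitor of NF-kB, was at 131 and 392 RPKM in m6A-tagged RNA and 179 and 277 RPKM in input. Gadd45g, a stress response gene, was the 2-fold lower member, at 55.7 and 21.3 RPKM. Egr1 and Per1 had m6A-tagged values of 26.8 and 33.5 RPKM and of 10.3 and 19.2 RPKM while their input was lower in Mettl3-deficient cells.

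HSC genes mostly had m6A-tagged ratios under their input ratios. Of 26 genes 16 lay below 0 in m6A-tagged RNA and 9 in input, with medians of -0.11 and 0.28. For 19 of the 26 the m6A-tagged ratio was under the input ratio. Gata3, a transcription factor of HSCs and T cells, stood at 29.8 and 14.1 RPKM in m6A-tagged RNA and at 8.26 and 12.9 RPKM in input, and was the only member 2-fold lower. Meis1, a homeobox factor of HSC maintenance, was at 86.8 and 50.9 RPKM and at 55.4 and 62.2 RPKM. Angpt1, an angiopoietin, was at 88.2 and 57.5 RPKM and at 67.7 and 84.9 RPKM. Hlf, a transcription factor of HSCs, was lower in both fractions, at 22.5 and 11.5 RPKM and at 17.2 and 10.9 RPKM. Each of these differences is under 2-fold except that of Gata3, and none has a replicate check.

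Of the large lists of housekeeping genes, cytosolic ribosomal proteins stood lowest relative to input, with a median m6A-tagged minus input ratio of -0.30. The smaller list of 24 chaperones was close, at -0.29. Among 81 genes 18 were 2-fold lower in m6A-tagged RNA and 0 were higher, beside 8 lower and 10 higher in input, and 7 were lower in both. The 22.2% lower in m6A-tagged RNA stand beside 7.15% of all genes. The medians were -0.18 and 0.10. For 64 of the 81 the m6A-tagged ratio was under the input ratio. Rpl39 (chromosome X, 37082518 to 37085222) stood at 167, 344 and 132 RPKM in wild-type input, unbound and m6A-tagged RNA and at 86.6, 294 and 27.3 RPKM in the Mettl3-deficient columns. Rps15a was at 21.6 and 3.48 RPKM in m6A-tagged RNA. Rps28 had an even input, at 157 and 161 RPKM, and m6A-tagged values of 105 and 45.7 RPKM. Ribosomal protein genes have many processed pseudogenes, so the share of reads each gene received is uncertain.

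Glycolytic enzymes and proteasome subunits leaned the other way. Of 16 glycolysis genes 14 lay above 0 in m6A-tagged RNA as in input, with medians of 0.59 and 0.18, and 2 were 2-fold higher (12.5%, all genes 6.02%). These were Pgk1, phosphoglycerate kinase, at 15.7 and 43.5 RPKM and Pfkl, a phosphofructokinase, at 129 and 284 RPKM. Ldha, lactate dehydrogenase, was at 225 and 450 RPKM. In wild-type cells the list lay under input in m6A-tagged RNA, with a median m6A-tagged over input of -0.42, and in Mettl3-deficient cells the median was -0.14. Of 38 proteasome subunits 28 lay above 0, with medians of 0.27 and 0.06, and Psmb4 stood at 183 and 449 RPKM in m6A-tagged RNA with 356 and 425 RPKM in input. Psmb8, an interferon-induced subunit, was higher in both, at 504 and 1017 RPKM and at 589 and 1117 RPKM. Among 80 nuclear-encoded oxidative phosphorylation genes 7 were 2-fold lower (8.75%, near the 7.15% of all genes) and 2 higher (2.50%, all genes 6.02%), with medians of -0.16 and -0.14.

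Long noncoding and histone transcripts had medians below 0, and small nucleolar RNAs were divided. Of 14 long noncoding RNAs 5 were 2-fold lower and 0 higher in m6A-tagged RNA, with a median of -0.76 beside -0.59 in input. In input 6 of the 14 were 2-fold lower (42.9%, all genes 6.67%). The 5 lower in m6A-tagged RNA are 35.7% of the list, where 7.15% of all genes were lower. Snhg1, Snhg3, Snhg5 and Snhg6 among them are host genes of small nucleolar RNAs, and the other is Neat1, the scaffold of paraspeckles, at 42.7 and 14.1 RPKM. Of 22 small nucleolar RNAs 7 were 2-fold lower (31.8%, all genes 7.15%) and 2 higher (9.09%, all genes 6.02%). They split into 10 above and 12 below 0, and the median of -0.17 lay above the -0.23 in input. Snord95 (chromosome 11, 48803139 to 48803206) stood at 393, 763 and 163 RPKM in wild-type input, unbound and m6A-tagged RNA and at 139, 224 and 12.7 RPKM in the Mettl3-deficient columns. Such short genes lie inside host genes, and reads of the host cannot be told apart from their own. Of 16 histone genes 7 were 2-fold lower in m6A-tagged RNA (43.8%, all genes 7.15%) and 5 in input (31.2%, all genes 6.67%), with medians of -0.72 and -0.67. Hist1h2ao (H2ac23 in RefSeq) was at 28.6 and 4.34 RPKM and H1fx (H1f10), a linker histone, at 27.5 and 4.34 RPKM. Histone genes of a cluster are near-identical, so their single values are uncertain.

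In the remaining lists with at least 5 genes compared, between 0% and 14.3% of genes were called in either direction in m6A-tagged RNA. Over all genes 6.02% were higher and 7.15% lower. Of the smaller lists, 2 of 3 lymphoid genes (66.7%), Cst7 and Nkg7, and 1 of 2 m6A writers (50.0%), Mettl3, were 2-fold lower. Of 2 endothelial and stromal genes 0 were called. Of 47 zinc finger genes (Zfp) 5 were 2-fold lower and 0 higher in m6A-tagged RNA, with a median of -0.05, and Zfp386 was lowest at 38.9 and 10.2 RPKM. Of 44 DNA replication and mitosis genes 3 were 2-fold lower, Mad2l1, Top2a and Ccne2, with medians of -0.14 in both fractions. Of 73 solute carriers 4 were higher (5.48%) and 5 lower (6.85%), near the 6.02% and 7.15% of all genes. Slc7a5, a large amino acid transporter, stood at 40.6 and 9.48 RPKM in m6A-tagged RNA and 26.7 and 4.26 RPKM in input. Of 33 translation factors 2 were higher, Eif4h at 72.5 and 214 RPKM and Eif3k, and 2 lower, Eif4g1 and Eif4a2. Chaperones had 1 of 24 genes 2-fold lower, Hsp90b1 at 347 and 159 RPKM. Among 41 nucleolar and ribosome assembly genes 1 was lower, Ddx21, an RNA helicase, at 39.0 and 14 RPKM, and 1 higher, Rrp9. Of 7 p53 targets Sesn2, a stress-induced sestrin, was 2-fold higher at 9.74 and 37.6 RPKM.

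Values per library, worked out for a few low genes, are the only replicate values. Among the 6295 genes compared, 12 had wild-type and 30 had Mettl3-deficient m6A-tagged reads solved, and 9 had both. These genes were solvable because they had few reads or a column without any, which favours genes low in Mettl3-deficient cells. Among myeloid genes the Mettl3-deficient m6A-tagged libraries had 49, 110 and 181 reads of Retnlg, 44, 158 and 94 of Ly6c2, 74, 124 and 166 of Slpi, a neutrophil protease inhibitor, 0, 64 and 206 of Mmp8, 0, 15 and 17 of Ear1, 0, 21 and 0 of Ear2 and 0, 0 and 10 of Epx. For Slpi this is 2.775, 3.94 and 4.798 RPKM. The wild-type columns of these genes could not be split in this way. For Cxcl10 the wild-type m6A-tagged libraries had 74, 62 and 0 reads.

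The 9 genes with all 6 m6A-tagged libraries solved are given as values without a test, since some passed the minimum mainly through their wild-type level. Sec61g, a subunit of the protein translocation channel, was at 6.14, 11.6 and 4.95 RPKM in wild-type and 1.88, 2.27 and 2.03 RPKM in Mettl3-deficient libraries, or 7.57 ± 3.56 against 2.06 ± 0.195 RPKM (SD, n = 3 each). AV051173 was at 5.18, 4.42 and 5.4 against 2.66, 2.46 and 3.10 RPKM, and Hist1h2ai at 8.64, 5.21 and 16.6 against 0.590, 3.33 and 4.09 RPKM. For 2610019E17Rik and Mir1901 the wild-type and Mettl3-deficient libraries had means of 9.71 and 2.57 RPKM and of 44.4 and 18.9 RPKM. In these 5 genes the Mettl3-deficient libraries lay wholly below the wild-type ones, and in the other 4 they overlapped. Among these 4, Atp5g2, a subunit of ATP synthase, was at 0.612, 3.62 and 0.442 against 3.64, 3.04 and 2.02 RPKM. Gm1673 was at 8.37, 1.17 and 8.16 against 1.17, 4.08 and 0.995 RPKM. For Gm4013 and Mir1896 the wild-type and Mettl3-deficient means were 6.93 and 5.46 RPKM and 36.4 and 11.7 RPKM. The labels call the libraries biological replicates.

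A set of 1065 genes had all 6 m6A-tagged libraries solved and at least 60 reads over them, nearly all under the minimum of 10 RPKM. Apart from genes compared, each also had an input or unbound column without a read, from which its length was known. In this set the Mettl3-deficient libraries lay wholly above in 135 (12.7%) and wholly below in 24 (2.25%). The input set of 1181 genes was picked by a read-free m6A-tagged or unbound column instead, and the counts were 62 (5.25%) and 102 (8.64%). The shares of these sets thus come from differently picked genes. Genes could pass the 60 reads through the genotype where they were high, so these counts test nothing. Wild-type m6A-tagged libraries lacked a read for 1.96 of 3 libraries on average among the 1065, and Mettl3-deficient ones for 1.10. limma on log2(RPKM + 1) called 0 of 1065 genes in m6A-tagged RNA (0.0%) at an adjusted p under 0.05, with 41 at an unadjusted p under 0.05, and 0 of 1181 in input (0.0%), with 70. On reads scaled to depth alone, a scale added after seeing the data, limma called 0 of the 1065, with 135 at an unadjusted p under 0.05. Its smallest adjusted p there was 0.0516, close to the threshold, against 0.511 on log2(RPKM + 1). Without the wild-type library that is second by depth it called 115 on the added scale, all higher.

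**Figure D5:**
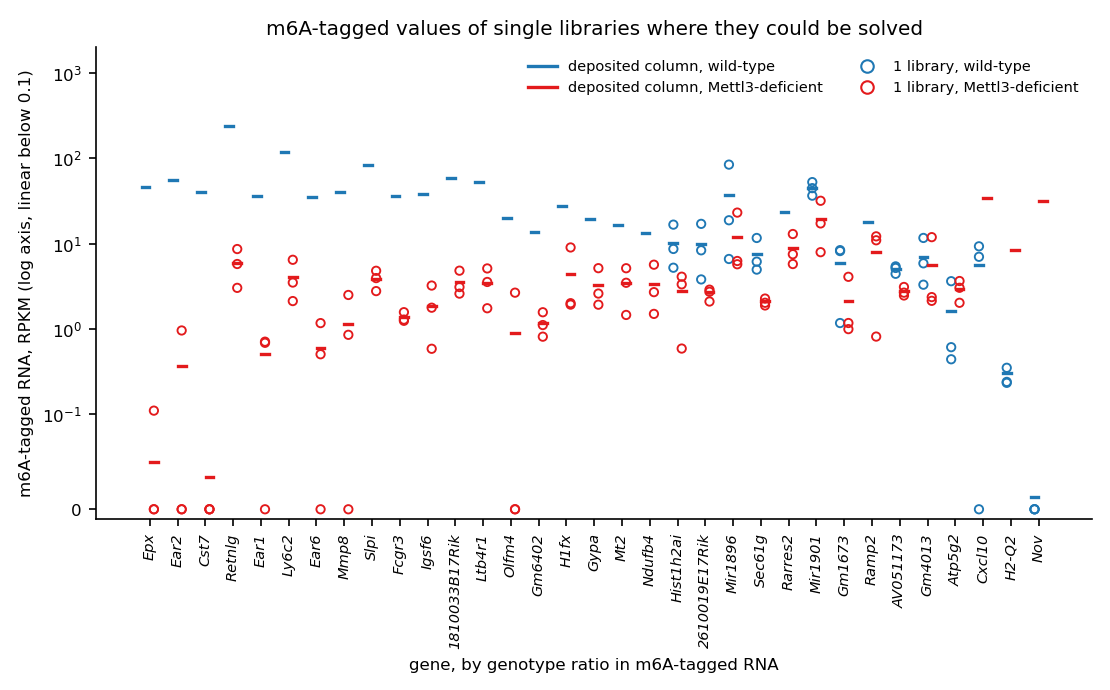
m6A-tagged RPKM (log axis, linear below 0.1) of genes with solved reads, ordered by genotype ratio. Open circles are single libraries and bars the deposited columns, which hold 1 added read per library, in blue for wild-type and red for Mettl3-deficient cells. The Mettl3-deficient libraries of the myeloid genes at the left, such as Retnlg at 3.028, 5.76 and 8.622 RPKM, lie far under the wild-type bars.

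Within single genes the reads came unevenly from the libraries. Among compared genes with at least 50 solved reads, the largest library held a median of 55.8% of the reads in wild-type m6A-tagged RNA (10 genes, 38.2% to 78.8%) and 54.0% in Mettl3-deficient m6A-tagged RNA (25 genes, 37.0% to 100%). For Olfm4, a neutrophil granule glycoprotein, the Mettl3-deficient m6A-tagged libraries held 0, 0 and 140 reads. A 2-fold difference between columns can therefore rest on 1 library, and for most genes the columns do not show it.

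Level and length bore on the comparison to different degrees. Over 5 equal groups of genes by mean RPKM the median m6A-tagged ratio went from -0.24 in the lowest to 0.15 in the highest, and the share that was 2-fold lower went from 12.6% to 5.08%. In input the medians went from -0.13 to 0.01. By genomic span the m6A-tagged medians stayed between -0.09 and 0.06, while the share 2-fold lower was 10.7% in the shortest of 5 groups and between 5.25% and 7.23% in the others. In unbound RNA the medians by span went from 0.55 in the shortest to -0.66 in the longest group. The genes next to the minimum show how it acts. Just inside were Topbp1, with a mean of 10.0033 RPKM and an m6A-tagged ratio of -1.04, and Tgtp1, with 10.0086 RPKM and 1.81, and just outside 1700113A16Rik, with 9.9964 RPKM and -0.22, and Cpne8, with 9.9956 RPKM and -0.16.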

How the data were processed

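The deposited values are RPKM in 2 tables, 1 for each genotype, whose columns for input, unbound and m6A-tagged RNA are each the mean of 3 libraries with 1 read added per gene, as the values show. The build was mm10 and the tools named are Picard and edgeR, with no role stated, per the submitters' processing notes. Which aligner and counter made the values is not given in the sources used here. Tables were joined on gene ID, and wild-type symbols were used for 25 IDs whose names differ. No columns of samples were left out.

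Ratios used an added 1 RPKM and genes whose 6 columns averaged 10 RPKM or more, a difference of 2-fold being a call. With pooled columns no test was made. The scale understates differences of low genes. Library depths and reads were solved from the values, which keep up to 9 decimals, as whole reads with 1 solution. Of values tried, 1.20% had none. Tested on simulated data, 99.97% of 71702 solved values and 99.04% of 314 searched gene lengths were right. Solved genes were tested with limma 3.58.1 (R 4.3.3) on log2(RPKM + 1) with a mean-variance trend and Benjamini-Hochberg adjustment. In simulated reads of the m6A-tagged comparison of 1065 genes, with a dispersion of 0.2, it called 52.0% of 4-fold, 98.0% of 16-fold and 0.3% of unchanged genes. That dispersion was set and not fitted to the solved genes. In those, 1.96 of 3 wild-type and 1.10 of 3 Mettl3-deficient m6A-tagged libraries lacked a read on average. The simulated shares therefore do not show how many true differences limma would find in them.

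Genes were named by rule. They are the 12 highest and 12 lowest in m6A-tagged RNA, the 8 highest and 8 lowest with input within 1.25-fold, the 6 largest in each direction among genes called in both fractions, genes called in opposite ways, the 3 members of each list furthest from 0, and Mettl3, Mettl14 and Myc. Other list members and the solved genes were named after their values were seen. The members, lists and rules were chosen with earlier results of these data known. Gene positions, promoters and newer names come from RefSeq GRCm38.p6, matched by gene ID. Alternatives were 2 other additions, 3 other minimums, 2 scalings, limma on solved libraries and leaving out each library.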

Additional observations from a re-analysis of the deposited data

How the results depend on the processing

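Under 2 other added values, 3 other minimums and 2 scalings, the share of genes 2-fold higher in m6A-tagged RNA was 3.73% with no minimum on RPKM, and that in input 1.23%, both more than 1.5 times from the reported shares. The shares lower in m6A-tagged RNA and in input, the share of m6A-tagged calls made the same way in input and the Spearman correlation stayed within 1.5 times, as did these 2 shares under the other settings. The counts with no minimum were 860 higher and 1678 lower of 23038 genes in m6A-tagged RNA, and 283 and 1224 in input. With a minimum of 50 RPKM they were 152 and 116, so that more were higher than lower, and 70 and 126 in input. The median over all genes went from -0.01 to between -0.06 and 0.12 in m6A-tagged RNA and from -0.05 to between -0.05 and 0.02 in input. Of 700 recomputed ratios of named genes 0 changed sign with a 2-fold difference, 10 dropped under 2-fold, among them Mettl3 at -0.88 with an added 5 RPKM, and 2 passed it. List medians changed sign 8 times. With a minimum of 50 RPKM these were erythroid genes at 0.16 and megakaryocyte genes at 0.28 in m6A-tagged RNA and erasers and readers at 0.17 in input. Immediate early transcripts were at -0.13 in m6A-tagged RNA and -0.25 in input with no minimum, and at -0.17 and -0.26 with the minimum on the m6A-tagged columns. Reported m6A targets were at -0.42 in input with no minimum. The cause was not tested, but a minimum changes which genes are in a list.

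On solved single libraries limma called 0.0% higher and 0.0% lower in m6A-tagged RNA and in input, on log2(RPKM + 1) without a replicate block and on a scale added after seeing the data, reads + 1 scaled to depth alone. These genes are mostly others than those compared. Leaving out each library, the share called higher in m6A-tagged RNA ranged from 0.0% to 10.8% and the other 3 shares from 0.0% to 0.0%. The 10.8%, 115 genes, came on the added scale without wild-type library 2 by depth. No paired analysis was possible because the columns pool the replicates and the solved libraries, ordered by depth, carry no replicate number. For pooled genes no library could be left out. What depth limits for pooled genes was not tested.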

Other observations

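The authors' deposited table for Mettl3-deficient cells ends with notes on single genes from their own comparison of fractions. The notes set Cst7 and Chchd2 apart as differing between eluted RNA and input and not between the unbound fraction and input, and name Rps14 for going opposite ways. Chchd2, a mitochondrial protein, stood at 208, 387 and 117 RPKM in wild-type input, unbound and m6A-tagged RNA and at 284, 750 and 92.2 RPKM in the Mettl3-deficient columns. Rps14 was at 1066, 2064 and 411 RPKM and at 1219, 3934 and 433 RPKM. The genotype log2 ratios in m6A-tagged RNA were -5.31 for Cst7, -0.33 for Chchd2 and 0.07 for Rps14. Of the 3 genes Cst7 was the one called 2-fold in the genotype comparison of m6A-tagged RNA.

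Genes 2-fold different in input with an m6A-tagged ratio under 2-fold numbered 93 on the higher and 182 on the lower side. Among them 22 and 61 had m6A-tagged columns within 1.25-fold of each other. The 182 had a median log2 m6A-tagged over input of -0.42 for wild-type and 0.57 for Mettl3-deficient cells, and the 93 had 0.60 and -0.09.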
